A study of Homo sapiens with 4 samples.

Results

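The E2F and DP transcription factors were measured as mRNA in the human line NUDUL1, which derives from a diffuse large B cell lymphoma (DLBCL) of the germinal center type. The family was taken as every gene of the expression table whose symbol is E2F1 to E2F8, TFDP1 or TFDP2, which gave 10 genes of 25066, 8 of them E2F genes and 2 of them genes for DP partners. RNA sequencing was carried out on 4 libraries, with 2 for each label, Control and GNA13-deficient. All cells carried doxycycline-inducible Cas9, came from a clone grown from a single cell and had been transduced with Tbxa2r, the receptor for thromboxane A2, which signals through Gα13. Control cells expressed a control sgRNA and GNA13-deficient cells an sgRNA against GNA13, with 1 sgRNA per genotype. Both received U46619, a stable thromboxane mimetic, at 10 nM for 24 h. The comparison was therefore between genotypes under receptor stimulation and held no untreated cells, and it asked which transcripts differed when Gα13 could or could not respond. The labels describe duplicates and do not say that these were separate cultures, so p values measure the spread between these samples, which may be technical.

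E2F proteins bind DNA, mostly as pairs with a DP protein, and control genes that cells need to enter S phase and copy their DNA. E2F1, E2F2 and E2F3 are known as activators and are held in check by the retinoblastoma protein until cyclin-dependent kinases (CDKs) phosphorylate it. E2F4 and E2F5 act mainly as repressors with the related proteins p107 and p130, E2F6 represses through polycomb proteins, and the atypical E2F7 and E2F8 repress without a DP partner. Germinal center B cells divide rapidly and express many E2F target genes, as do lymphomas derived from them.

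Total mapped reads per library ranged from 29209544 to 31537955. GNA13, the targeted gene, was at 12.46 and 12.45 (log2) under the Control label and at 13.10 and 13.11 under the GNA13-deficient label, a difference of 0.65 (SE 0.05, adjusted p = 0.00214, limma). Its mRNA was thus higher under the GNA13-deficient label, and these libraries did not measure its protein. Control and GNA13-deficient libraries are here the libraries labelled as such, and all directions are between those labels. Of 8 B cell markers, all were detected, with 68295 to 78649 reads in sum per library. MS4A1, the gene for CD20, differed by -0.57 and BCL6, a germinal center repressor, by -2.49 (log2, adjusted p = 0.00477 and 0.00085). Of 6 markers of other blood cells, CD3D, CD3E and HBB were listed at 0 in every library, and the 6 together had 119 and 124 reads in the Control libraries and 53 and 46 in the GNA13-deficient libraries, where LYZ was lower (a log2 difference of -2.53, adjusted p = 0.00759). In RNA from whole cultures, fewer cells that express a gene and less of its RNA per cell cannot be told apart.

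Of the 10 family genes, 5 were higher in the GNA13-deficient libraries (E2F1, E2F2, E2F7, E2F8 and TFDP1), 2 were lower (E2F3 and E2F5) and 3 did not pass the test (E2F4, E2F6 and TFDP2). Values were compared on the deposited log2 scale of normalized reads by limma over 16945 genes, with a threshold of 0.05 on the Benjamini-Hochberg adjusted p. Among all genes tested 29.7% passed, 13.1% as higher and 16.6% as lower. The genotypes did not overlap in 9 of the 10 family genes, and they did not overlap in 65.3% of all genes tested. The median log2 difference was 0.30 over the family and -0.02 over all genes. The family therefore did not move as a block, and activators were found on both sides.

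**Figure D1:**
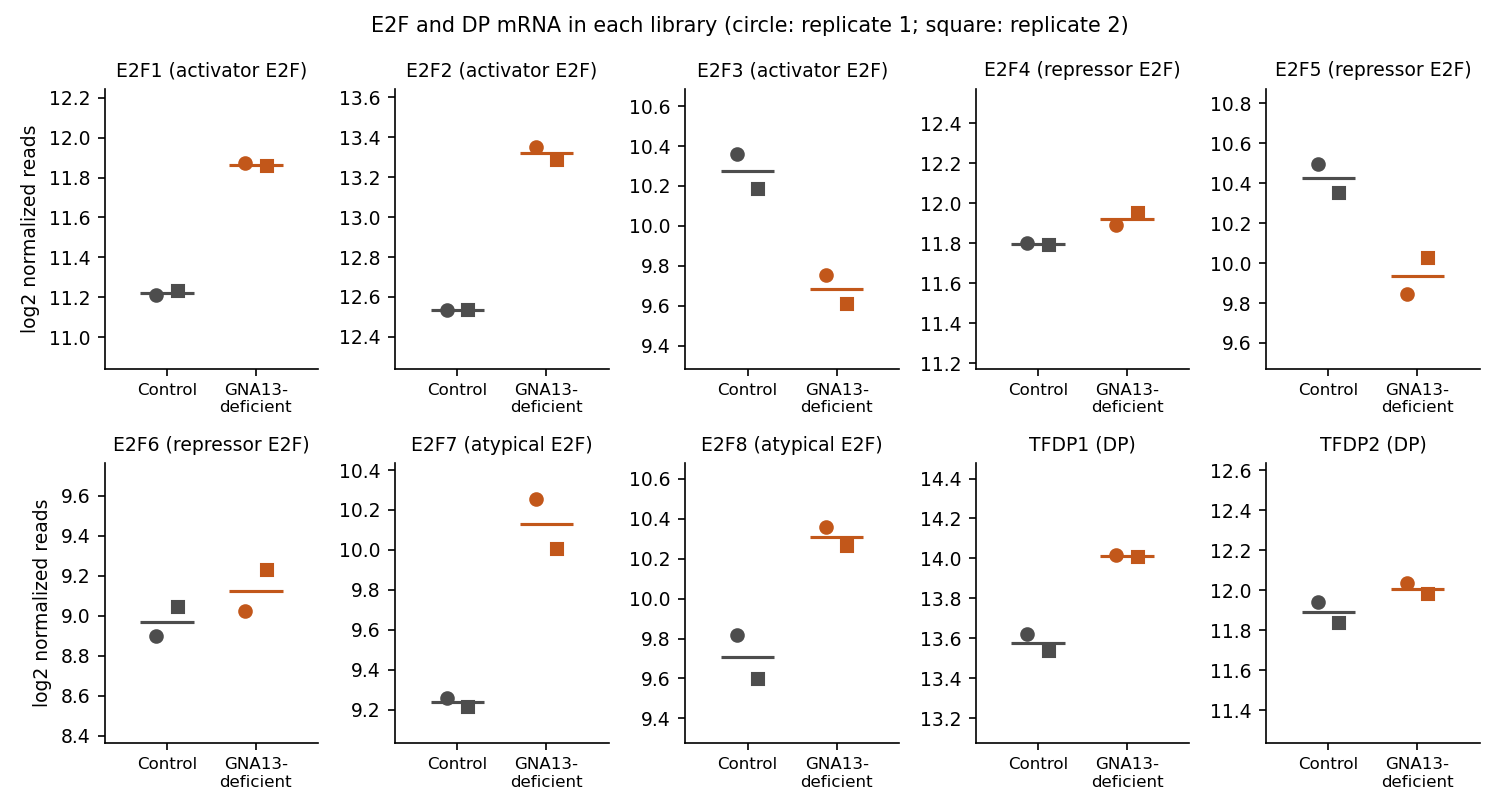
Log2 normalized reads of the 10 E2F and DP genes in each of the 4 libraries, with circles for replicate 1, squares for replicate 2 and lines for the group means; every panel spans the same range on the log2 scale. The GNA13-deficient points lie above both Control points in 7 genes, and below them in E2F3 and E2F5, and in E2F6 the genotypes overlap.

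The calls differed in how firmly they held. E2F1 and E2F2 passed in all 10 other settings that used the 4 libraries, and E2F7 in 9 of them. E2F3, E2F8 and TFDP1 passed in 8 and E2F5 in 7, and the calls were lost without a filter on low values (E2F3, E2F5, E2F7, E2F8 and TFDP1, adjusted p between 0.0524 and 0.125) or without a mean-variance trend (E2F3, E2F5, E2F8 and TFDP1, between 0.0549 and 0.0831). E2F5 was also lost when each library was centred on its median (-0.28, adjusted p = 0.0842), where E2F4 (0.33, adjusted p = 0.0163) and TFDP2 (0.33, adjusted p = 0.0134) passed. Centring moved the median of all genes by more than 0.1, to 0.18, and 69.1% of the 6235 genes called were then higher, against 2218 of 5037 as deposited. With any of the 4 libraries left out, 0 of 16945 genes passed limma's adjusted threshold, while, depending on the library, 5 family genes were higher and 1 or 2 lower at an unadjusted p under 0.05. No family gene changed sign in any of these settings.

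**Figure D2:**
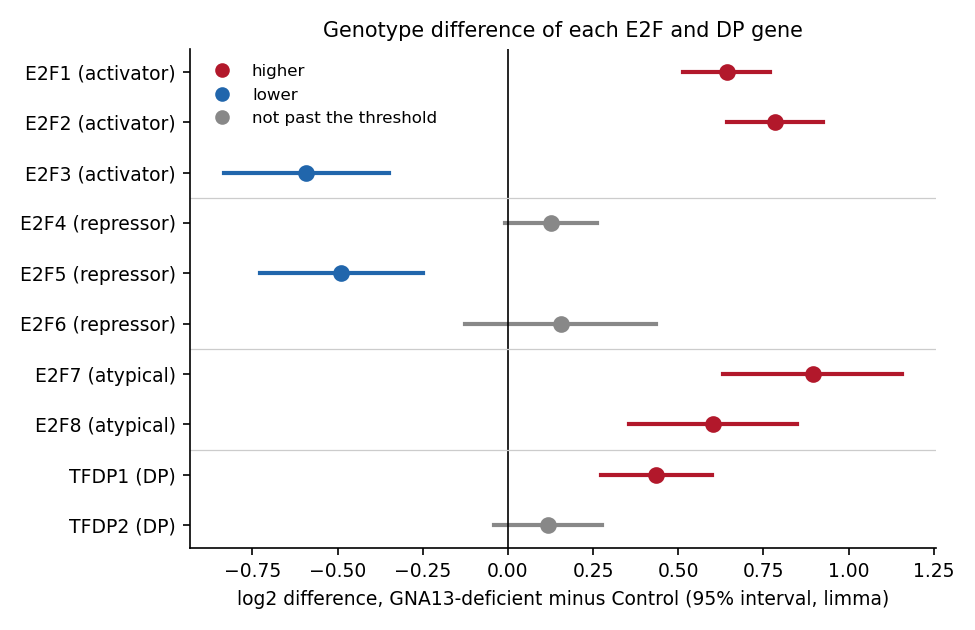
Log2 difference of each E2F and DP gene, GNA13-deficient minus Control, with its 95% interval from limma; red points were higher, blue points lower and gray points did not pass the threshold. Activators lie on both sides of 0, both atypical E2Fs lie to the right, and the intervals of E2F4, E2F6 and TFDP2 include 0.

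Because E2F genes are themselves known to be controlled by E2F proteins, their promoters were searched for E2F motifs. The promoter windows, from 250 bases before to 50 bases after each RefSeq start, covered 8 of the 10 genes in 11 entries, with none for E2F5 and E2F8. The E2F words searched, on both strands, were TTCGCGC with its variant TTCGCGG, then TTGGCGC with its variant TTGGCGG, and then TTCCCGC with its variant TTGCCGC. For the cell cycle homology region (CHR), a motif of late cell cycle genes, they were TTTGAA with its variant TTCGAA. They were chosen after the E2F1 promoter had been seen. E2F words that overlapped each other were counted once. At least 1 E2F word was found in 7 of the 11 entries and in 6094 of all 35116 promoters (17.35%). A CHR word was found in 3 of the 11 entries and in 16.35% of all promoters.

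The sequences below are 100 bases each, shown for the activators because they share an arrangement of words, for E2F4 because its window held none, and for E2F7 because its words lay farther from the start. Capitals mark E2F words, and all sequences are from RefSeq (GRCh38.p14 table) and were placed in GRCh37 by an exact match that was found once each, upstream of the annotated gene start. E2F1 lies at chr20:32274192-32274291 (minus strand), E2F2 at chr1:23857726-23857825 (minus strand), E2F3 at chr6:20402010-20402109 (plus strand) and E2F4 at chr16:67225958-67226057 (plus strand), each ending at base -1 before the start. E2F7 lies at chr12:77459450-77459549 (minus strand), from base -200 to base -101.
E2F1: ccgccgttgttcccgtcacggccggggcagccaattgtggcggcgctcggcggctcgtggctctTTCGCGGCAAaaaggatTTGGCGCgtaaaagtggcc
E2F2: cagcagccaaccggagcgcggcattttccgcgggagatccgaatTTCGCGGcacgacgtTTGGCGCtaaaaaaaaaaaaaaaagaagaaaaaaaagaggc
E2F3: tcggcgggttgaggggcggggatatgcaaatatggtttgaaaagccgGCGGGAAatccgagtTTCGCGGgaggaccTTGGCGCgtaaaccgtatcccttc
E2F4: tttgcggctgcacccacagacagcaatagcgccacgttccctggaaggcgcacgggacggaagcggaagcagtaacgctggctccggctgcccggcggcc
E2F7: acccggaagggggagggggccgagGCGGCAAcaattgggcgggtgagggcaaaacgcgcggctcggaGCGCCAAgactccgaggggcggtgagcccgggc

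In all 3 activators TTCGCGG was followed by TTGGCGC on the same strand shortly before the start. The words began at -36 and -19 in E2F1, at -56 and -41 in E2F2 and at -38 and -24 in E2F3, which places them 17, 15 and 14 bases apart. In the whole table this pair, at 14 to 17 bases, occurred in 4 of 35116 promoters (0.0114%), and the fourth was that of RFC1, a subunit of the clamp loader of DNA replication. The spacing was taken from the 3 activators, so their presence in that count is fixed. The genes that carried the pair did not share a direction, since E2F1 and E2F2 were higher and E2F3 was lower. RFC1 had log2 values of 11.61, 11.37, 11.88 and 11.79 and did not pass (0.34, adjusted p = 0.0544). E2F3 has another RefSeq promoter entry, which held neither kind of word, and the expression table gives 1 value for the gene, so its transcripts were not separated. E2F7 held words beginning at -176 and -133, TFDP1 held one word beginning at -120, and the words in E2F6 and one TFDP2 entry lay after the start.

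**Figure D3:**
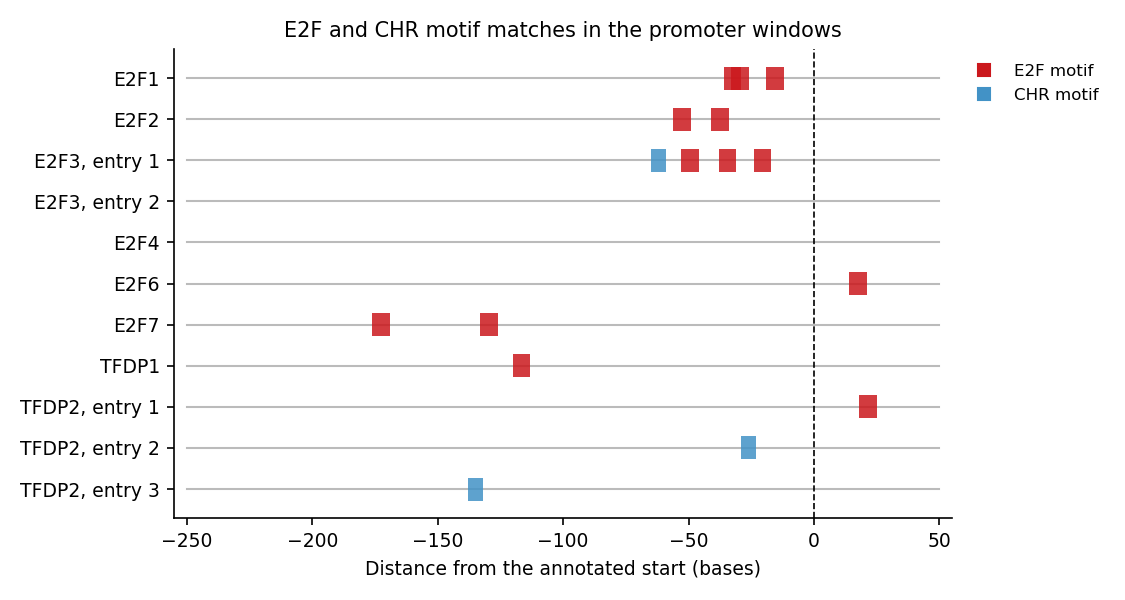
Places of E2F words (red) and CHR words (blue) in the 11 promoter windows of 8 E2F and DP genes, by distance in bases from the annotated start (dashed line). The words of E2F1, E2F2 and the first E2F3 entry cluster just before the start, and the E2F4 window held none.

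E2F1, an activator also known for inducing apoptosis genes, was higher in the GNA13-deficient libraries. Its gene model spans chr20:32263283-32274191 (GRCh37). The log2 values were 11.21 and 11.23 in the Control libraries and 11.87 and 11.86 in the GNA13-deficient libraries, from 2333 to 3658 reads. The replicates of a genotype lay within 0.02 of each other and the genotypes were far apart. E2F1 rose by 0.64 (SE 0.05, 95% interval 0.52 to 0.77, adjusted p = 0.0021, limma), a fold of 1.56.

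E2F2, an activator studied in lymphocyte proliferation, was the most abundant activator. It is encoded at chr1:23832930-23857725. It had log2 values of 12.54 and 12.53 in the Control libraries and 13.35 and 13.29 in the GNA13-deficient libraries, from 5841 to 10175 reads. Both GNA13-deficient libraries were well above both Control libraries. E2F2 rose by 0.78 (SE 0.05, 95% interval 0.64 to 0.93, adjusted p = 0.00176), a fold of 1.72.

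E2F3, the remaining activator, moved the other way. The gene spans chr6:20402110-20493945. Its log2 values were 10.36 and 10.19 in the Control libraries and 9.76 and 9.61 in the GNA13-deficient libraries, from 1293 down to 726 reads. Both GNA13-deficient libraries lay below both Control libraries. E2F3 fell by 0.59 on the log2 scale (SE 0.09, 95% interval -0.83 to -0.35, adjusted p = 0.0113), to a fold of 0.664. A long noncoding RNA and a microRNA gene overlap E2F3 on the same strand. There are 2 annotated pseudogenes of E2F3, among which its reads could have been split in counting.

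E2F4, the most abundant repressor E2F and the main partner of p130 in resting cells, spans chr16:67226058-67232821. The log2 values were 11.80 and 11.79 in the Control libraries and 11.89 and 11.95 in the GNA13-deficient libraries. The genotypes did not overlap, and the difference of 0.13 (SE 0.05, 95% interval -0.01 to 0.26, adjusted p = 0.141) did not pass the test. A difference larger than 0.26 lies outside its interval on the values as deposited. With each library centred on its median the difference was 0.33 and passed (adjusted p = 0.0163, limma), so the bound depends on scaling. E2F4 has 1 annotated pseudogene, a limit on its count.

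E2F5, a repressor E2F that also works with p130, spans chr8:86089389-86129387. It had log2 values of 10.50 and 10.35 in the Control libraries and 9.85 and 10.03 in the GNA13-deficient libraries, from 1421 down to 897 reads. The libraries of the genotypes did not overlap, and the Control libraries were the higher. E2F5 fell by 0.49 (SE 0.09, 95% interval -0.73 to -0.25, adjusted p = 0.0185), to a fold of 0.712. RBIS and a long noncoding RNA overlap the gene on the opposite strand, and the sources used here do not say whether counting used strand, so their reads cannot be told apart from those of E2F5 with certainty.

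E2F6, which recruits polycomb repressors, spans chr2:11584501-11606303 and was the family gene with the fewest reads, 469 to 558. Its log2 values were 8.90 and 9.04 in the Control libraries and 9.02 and 9.23 in the GNA13-deficient libraries. The genotypes overlapped, and the difference was 0.16 (SE 0.11, 95% interval -0.13 to 0.44, adjusted p = 0.349). Read counting alone gave a standard error of 0.06 on this difference, which leaves out all other sources of error. It is no limit of detection, and the fitted SE of 0.11 was larger. Its 4 annotated pseudogenes make the value uncertain in the same way as for E2F3.

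E2F7, an atypical E2F that represses E2F1 and other E2F targets late in the cycle, spans chr12:77415028-77459349. It had log2 values of 9.26 and 9.21 in the Control libraries and 10.26 and 10.01 in the GNA13-deficient libraries, from 602 to 1191 reads. The GNA13-deficient libraries stood 0.25 apart and both were well above the Control libraries. E2F7 rose by 0.89 (SE 0.10, 95% interval 0.63 to 1.16, adjusted p = 0.00479), a fold of 1.86.

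E2F8, the other atypical E2F, spans chr11:19245610-19263167. The log2 values were 9.82 and 9.60 in the Control libraries and 10.36 and 10.26 in the GNA13-deficient libraries, from 788 to 1278 reads. The genotypes did not overlap. E2F8 rose by 0.60 (SE 0.10, 95% interval 0.35 to 0.85, adjusted p = 0.0115), a fold of 1.52, with the limit that the antisense gene CSRP3-AS1 overlaps it. The 2 atypical genes were thus higher together, beside E2F1 and E2F2.

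TFDP1, which encodes DP1, the common partner of E2F1 to E2F6, spans chr13:114239036-114295788. It had log2 values of 13.62 and 13.54 in the Control libraries and 14.02 and 14.01 in the GNA13-deficient libraries, from 12064 to 16167 reads. Both GNA13-deficient libraries were higher than both Control libraries. TFDP1 rose by 0.44 (SE 0.06, 95% interval 0.27 to 0.60, adjusted p = 0.00899), a fold of 1.35, with 3 annotated pseudogenes as a limit on the count.

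TFDP2, which encodes the alternative partner DP2, spans chr3:141663270-141868386. Its log2 values were 11.94 and 11.84 in the Control libraries and 12.03 and 11.98 in the GNA13-deficient libraries. The genotypes were close without overlapping, and the difference was 0.12 (SE 0.06, 95% interval -0.04 to 0.28, adjusted p = 0.222). The processed pseudogene RPL19P6 overlaps TFDP2 on the same strand, a limit on its count. TFDP3, a relative that is no member here, had 0 to 3 reads.

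Levels were next set side by side per kb of the longest annotated transcript, as normalized reads on the linear scale. In the Control libraries TFDP1 was highest at 4633 ± 191 (SD, n = 2), followed by E2F4 at 1360 ± 6.0, E2F2 at 1142 ± 2.2 and E2F1 at 888 ± 8.3. The other genes lay between 105 for E2F7 and 384 for TFDP2. In this order E2F5 and E2F3 overlapped, as did E2F3 and E2F8, and all other neighbors were separate. In the GNA13-deficient libraries E2F2, at 1967 ± 59.8, stood above E2F4, at 1484 ± 45.1, and E2F1 reached 1387 ± 12.2. E2F7 moved from the lowest place to a level of 196 ± 24.0 that overlapped that of E2F5, 195 ± 17.2, and E2F3, at 163 ± 11.7, overlapped E2F6, at 162 ± 16.4. Ranks depend on the transcript length used. With the mean length E2F4 stayed above E2F2 in both genotypes (3723 against 2066 in the Control libraries and 4062 against 3558 in the GNA13-deficient libraries), and without division by length E2F2 was already above E2F4 in the Control libraries, so the change of order between them held only for the longest transcript. With the mean length TFDP2 took place 3 instead of 5 in the Control libraries, E2F1 place 5 instead of 4, and E2F6 was lowest in place of E2F7.

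Shares of the E2F family were taken per kb of the longest transcript. They differed between genotypes mainly in E2F2 and the repressors. Activators made up 51.7% and 52.1% of the summed E2F level in the Control libraries and 60.3% and 58.9% in the GNA13-deficient libraries, a difference of 7.74 percentage points. E2F2 differed the most among them, from 25.8% and 26.2% to 33.9% and 32.8%. E2F3, by contrast, was 11.4% and 10.2% of the activators in the Control libraries and 4.80% and 4.48% in the GNA13-deficient libraries. Per kb there was 3.38 and 3.87 times as much E2F1 as E2F3 in the Control libraries, and 8.13 and 8.89 times as much in the GNA13-deficient libraries. None of these values overlapped between genotypes. The shares themselves depend on the length used. With the mean length E2F4, at 3723 in the Control libraries, exceeded E2F1 (888), E2F2 (2066) and E2F3 (262) together. Activators then did not make up most of the level in those libraries.

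Repressor E2Fs made up 40.4% and 40.7% of the family in the Control libraries and 30.1% and 32.3% in the GNA13-deficient libraries, most of it E2F4. Atypical E2Fs made up 7.92% and 7.20%, then 9.57% and 8.71%. TFDP1 was 92.3% and 92.4% of the DP level in the Control libraries and 93.7% and 93.9% in the GNA13-deficient libraries. This share was lower with other lengths. In the Control libraries TFDP1 and TFDP2 were at 11102 and 2359 with the mean length, and at 12226 and 3798 without division by length. The summed level per kb was 1.34 times higher for the E2Fs and 1.33 times higher for the DP partners in the GNA13-deficient libraries. The repressor share was therefore lower without a lower level of every repressor. Mean levels in the Control and then the GNA13-deficient libraries were 1360 and 1484 for E2F4, and 146 and 162 for E2F6. Of the repressors only E2F5 was lower, at 273 and then 195. With 2 libraries against 2, the two-sided exact permutation test gave p = 0.333 for each share, which is the smallest it can give.

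**Figure D4:**
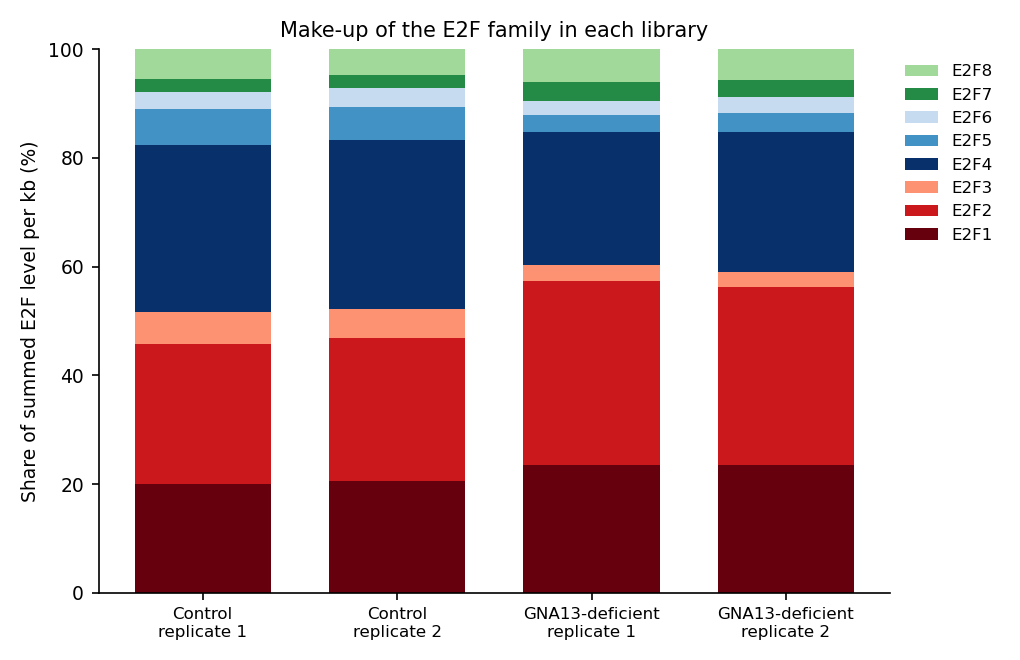
Share of each E2F gene in the summed E2F level per kb (percent, from 0 to 100) in each of the 4 libraries; reds are activators, blues repressors and greens atypical E2Fs. The E2F2 segment is larger and the E2F3, E2F4 and E2F5 segments are smaller in both GNA13-deficient libraries. Segments are shares, and the level of E2F4 itself was not lower in those libraries.

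The proteins that control E2F activity were examined as lists of 44 genes in all, of which 19 were higher, 2 were lower and 23 did not pass, with a median log2 difference of 0.31. Among all genes tested 13.1% were higher and 16.6% lower. Among the 3 pocket proteins, which bind E2Fs and block them, RBL1, the gene for p107 and itself an E2F target, had log2 values of 9.83 and 9.76 in the Control libraries and 10.79 and 10.72 in the GNA13-deficient libraries. It rose by 0.96 (SE 0.06, adjusted p = 0.00159). RB1, the retinoblastoma gene, differed by 0.09 (adjusted p = 0.302) and RBL2, the gene for p130, by -0.15 (adjusted p = 0.306), and neither sign was stable, since RB1 turned negative under quantile normalization and RBL2 positive under median centring. Of the 3 pocket protein genes, RBL1 alone passed on the values as deposited.

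Of 9 cyclins, CDKs and activating phosphatases of G1, 5 were higher and 1 was lower, with a median of 0.62. CCND3, the cyclin D of germinal center B cells, had values of 13.02 and 13.15 against 14.32 and 14.45 and rose by 1.30 (adjusted p = 0.00157). CDC25A, a phosphatase that activates CDK2, rose by 0.88 (adjusted p = 0.00129), and CDK2 itself by 0.74 (adjusted p = 0.00252). CDK6, a kinase that works with cyclin D, was at 12.41 and 12.57 against 11.77 and 11.62 and fell by 0.80 (adjusted p = 0.00435). CDK4, the other kinase of cyclin D, named after its values were seen, was at 13.03 and 13.25 against 13.67 and 13.83 and rose by 0.61 (adjusted p = 0.0135). Of 7 CDK inhibitors, 2 were higher and 0 lower by limma (0 lower also by voom, and 1, CDKN2B, a low gene named after its values were seen, at an unadjusted p under 0.05). The higher genes were CDKN2C, which binds CDK4 and CDK6, at 0.71 (adjusted p = 0.00222), and CDKN1B, the gene for p27, at 0.31 (adjusted p = 0.0496), close to the threshold. Among all genes tested 13.1% were called higher, 16.6% lower and 29.7% in either direction. The lists were not tested against these shares.

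Of 7 genes for the MuvB core, which joins p130 and E2F4 in the repressive DREAM complex, and for its activating partners, 5 were higher and 0 lower by limma (0 lower also by voom and at an unadjusted p under 0.05), with a median of 0.46. MYBL2 (B-MYB) rose by 1.14 (adjusted p = 0.00181) and FOXM1 by 0.99 (adjusted p = 0.00158), both of them activators of mitotic genes. The core subunits LIN9 and LIN52 rose by 0.58 and 0.37 (adjusted p = 0.0149 and 0.0376). Among all genes tested 13.1% were called higher and 16.6% lower, which serves for this list and the next. Of 7 genes for E2F turnover, 4 were higher and 1 was lower, with a median of 0.72. These were CCNA2, whose cyclin A with CDK2 silences E2F1 (1.08, adjusted p = 0.00115), CCNF, a ubiquitin ligase subunit (0.85, adjusted p = 0.00179), CDC20, an activator of the anaphase-promoting complex (0.84, adjusted p = 0.00337), and SKP2, which directs degradation of p27 and E2F1 (0.72, adjusted p = 0.00332). FBXW11, a ligase subunit named after its values were seen, fell by 0.37 (adjusted p = 0.00778).

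Of 11 subunits of the polycomb complex that contains E2F6, PCGF6 (0.59, adjusted p = 0.00591) and WDR5 (0.37, adjusted p = 0.00754) were higher, 0 were lower by limma (0 also by voom and at an unadjusted p under 0.05) and 9 did not pass, a count near the background of 13.1% of all genes called higher. The median was -0.03, close to that of all genes, and it was 0.18 under median centring, where 6 subunits changed sign. E2F6 itself likewise did not pass.

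Known E2F targets of DNA replication and repair were taken as a list, which was chosen with earlier results of these data known. It held 50 genes, 3 of which the table holds under older symbols. Of these, 44 were higher, 0 were lower by limma (0 also by voom and at an unadjusted p under 0.05) and 6 did not pass, beside 13.1% of all genes called higher. Their median log2 difference was 0.73, and 49 of 50 lay above 0. POLA1, the catalytic subunit of the priming polymerase, had log2 values of 11.90 and 11.73 in the Control libraries and 12.93 and 12.89 in the GNA13-deficient libraries. The genotypes did not overlap. POLA1 rose by 1.10 (adjusted p = 0.00171), RRM2, a subunit of ribonucleotide reductase, by 1.09 (adjusted p = 0.00157), and ORC1, which marks replication origins, by 1.01 (adjusted p = 0.00108). The exceptions, named after their values were seen, were RFC4, RRM1, TIPIN, DBF4, BRIP1 and CHEK1, of which CHEK1 alone was below 0, at -0.10 (adjusted p = 0.293), and it lay above 0 under median centring. The promoter windows covered 43 of the 50 target genes in 64 entries, of which 47 (73.44%) held an E2F word. Among all promoters 17.35% did, and the words were chosen after the E2F1 promoter had been seen.

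**Figure D5:**
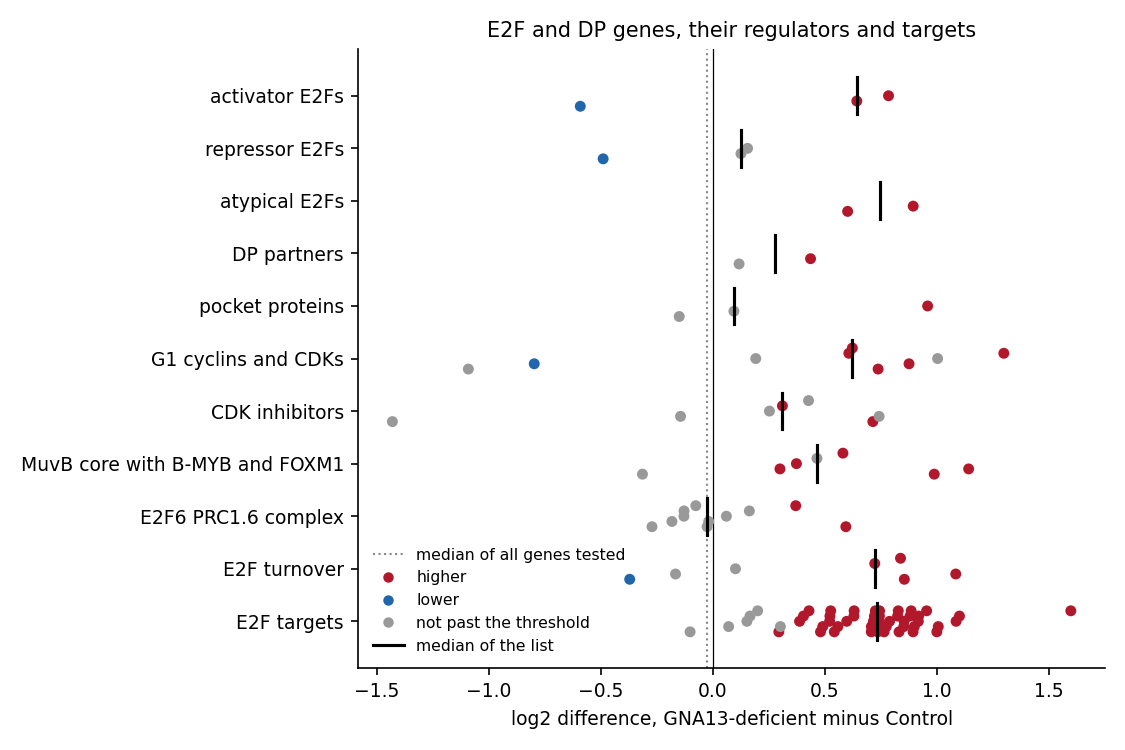
Log2 difference, GNA13-deficient minus Control, of each gene in the E2F and DP groups, the lists of their regulators and the list of E2F targets; red genes were higher, blue lower and gray did not pass, black bars are list medians and the dotted line is the median of all genes tested. The 50 targets lie almost all to the right of 0, as do E2F1, E2F2, E2F7, E2F8 and TFDP1, while E2F3, E2F5 and CDK6 lie to the left.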

How the data were processed

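RNA sequencing of NUDUL1 cells comprised 2 Control and 2 GNA13-deficient libraries. Per the study's methods, the authors made libraries with a stranded poly(A) kit, used STAR for alignment to hg19, then normalized the reads and deposited log2 values per gene. The submitters' processing notes name HTSeq. The normalization method and the annotation are not given in the sources used here. A row of mapped totals, deposited on a linear scale in the same table, served for depth only. Log2 values were used as deposited, with no pseudocount. On the linear scale the values stepped in whole reads, and 100% of values up to 400 reads came out whole; these recovered reads gave the depth behind each value and the voom alternative.

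The comparison took 16945 of 25066 genes, those that exceeded 0, the lowest value listed, in 2 or more libraries. It used lmFit and trended eBayes of limma 3.58.1 (R 4.3.3) on genotype alone, with Benjamini-Hochberg adjustment over all genes tested at 0.05. All 10 family genes passed that filter. Per-kb levels used the longest GENCODE transcript (GRCh37), as did gene positions. Promoter sequences were from RefSeq. The fit was also run on simulated libraries with known changes. These were drawn independently and with the same dispersion for every gene, unlike real libraries, so that run does not bear on the calls reported. Scripts used Python 3.11.

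The family genes and all lists were chosen with earlier results of these data known. Genes named besides the family were GNA13, every pocket protein and, per list, up to 4 genes with the largest absolute difference among those past the threshold, and list genes at 0 in all libraries; others are said to be named after their values were seen. Some genes that this rule includes are not reported here. Alternatives left out the filter or set it at the median, and used pseudocounts of 1 and 10, quantile normalization, median centring, no variance trend, a robust prior, voom on recovered reads, a replicate block, or each set of libraries with 1 left out.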

Additional observations from a re-analysis of the deposited data

How the results depend on the processing

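Leaving out each library in turn gave between 0 and 0 genes called, and likewise between 0 and 0 for the family genes, the regulator lists and the target list in either direction; such a fit has 1 residual degree of freedom, and the lone library is assumed to vary like the other group. At an unadjusted p under 0.05 these fits gave 2264 to 2390 genes as higher and 2942 to 3244 as lower, and 42 to 44 targets as higher. Without a filter on low values 1999 genes, against 5037, were called, with 2 family genes higher and 0 lower and 1 regulator lower. Without a variance trend 2718 genes were called, with 3 family genes higher and 0 lower and 1 regulator lower. Median centring called 1 family gene and 1 regulator lower, and quantile normalization 4 regulators lower, against 2. The cause of these moves was not tested. The activator share difference of 7.74 points was 9.0 with the mean transcript length and 7.06 to 8.42 with 1 library left out. The TFDP1 share difference of 1.42 points was 2.97 with the mean length, 3.76 without division by length and 1.34 to 1.51 with 1 library left out.

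The replicate numbers are not stated to pair the samples. With the replicate number as a block, 6616 genes were called, and the same 7 family genes passed, 5 higher and 2 lower; it changed the call of no family gene. Over 8473 genes, deviations of same-numbered libraries correlated at 0.453, a single value that 2 pairs cannot tell apart from an unrelated difference between libraries.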
